A study of Mus musculus with 9 samples.

Results

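Bone morphogenetic proteins (BMPs) are secreted ligands of the TGF-β superfamily that bind pairs of type I and type II receptor kinases. The receptors phosphorylate SMAD1, SMAD5 and SMAD9, which enter the nucleus with SMAD4 and activate a small set of direct targets, among them the Id genes and the pathway's own inhibitors. In the embryo BMP4 is required for mesoderm to form at the posterior of the epiblast, and the balance between BMP ligands and secreted antagonists patterns the caudal end of the body. The genes described here are 4 BMP ligands (Bmp2, Bmp4, Bmp7 and Bmp8b), 3 inhibitor of DNA binding factors (Id1, Id2 and Id3) and 3 pathway inhibitors that BMP signalling itself induces (Smad6, Smad7 and Bambi). They were taken by gene symbol, and all 10 were found among the 24736 genes of the RNA-seq table.

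The RNA came from mouse embryonic stem cells differentiated for 3 days (72 h) into caudal epiblast-like cells, an in vitro counterpart of the progenitors that build the trunk. All cultures received 10 ng/ml bFGF and 5 µM LGK974, which blocks the secretion of endogenous WNT ligands, throughout, and the GSK3 inhibitor CHIR99021, which activates WNT signalling, was added for the last day. No BMP ligand or BMP inhibitor is named among the additions, in any group. The 3 groups were WT, CdxKO, in which the caudal homeobox genes Cdx1, Cdx2 and Cdx4 are all mutated, and T/BraKO, in which the T-box gene T (Brachyury) is mutated, each with 3 libraries labelled biological replicates 1, 2 and 3. All lines derive from the male HM1 TetON embryonic stem cell line, which served as WT, and as no other line of a genotype is described in the sources used here, genotype and line cannot be told apart. Embryonic stem cells were kept on mouse embryonic fibroblast feeders, which were removed by plating before differentiation. Whether replicates came from separate thaws is not stated, so p-values measure the spread between these cultures.

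Libraries held 25124344 to 34705361 expected counts, the estimates of reads per gene that RSEM gives. The mutated genes were lower in the mutant lines but not all lost. Cdx4 had 1.25 to 1.88 normalised counts in CdxKO cells against 60.0 to 161 in WT cells, and Cdx1 and Cdx2 were lower but still expressed (log2 fold changes -0.98 and -2.03). T had 1777 to 2894 normalised counts in T/BraKO cells against 10899.6 to 14759.9 in WT cells. The caudal epiblast markers Nkx1-2 and Wnt8a were abundant in every library, with at least 4902 and 2541 normalised counts. Mean normalised counts in WT, CdxKO and T/BraKO cells were 7201, 6008 and 9897 for Nkx1-2 and 4661, 2734 and 5168 for Wnt8a. Others of the 11 markers were lower in both mutants, with 715, 267 and 316 for Wnt3a and 725, 473 and 245 for Fgf8. Log2 fold changes over WT were positive for 2 of the 11 in CdxKO and 8 in T/BraKO cells. A normalised count is an expected count divided by the library's DESeq2 size factor.

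The 10 genes lie on 6 chromosomes of the GRCm38 build. Bmp2 (chr2:133552159-133562885, plus strand), Id1 (chr2:152736251-152737410, plus) and Bmp7 (chr2:172868012-172940321, minus) share chromosome 2. Bmp8b (chr4:123105165-123132099, plus) and Id3 (chr4:136143497-136145755, plus) share chromosome 4, and Bambi (chr18:3507923-3516404, plus) and Smad7 (chr18:75367529-75395935, plus) share chromosome 18. Smad6 (chr9:63953076-64022059, minus), Id2 (chr12:25093799-25097140, minus) and Bmp4 (chr14:46383520-46390669, minus) lie apart. All 10 are protein-coding in GENCODE M21. No annotated gene overlaps 8 of them, whereas Bmp4 overlaps Gm15217 and Gm15222 on the opposite strand and Bmp8b overlaps Oxct2b on its own strand and Ppie and Gm17244 on the other.

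On the per-length TPM scale, which divides by gene length and library total, the ID factors were the most abundant of the 10 genes. In WT cells Id3 stood at 108 ± 24.4 TPM (SD, n = 3), Id1 at 51.1 ± 13.6 and Id2 at 19.9 ± 8.99. The most abundant ligand was Bmp7, at 13.8 ± 0.297 TPM, followed by Bmp4 at 6.40 ± 1.80 and Bmp2 at 4.39 ± 1.51. The inhibitors Bambi (3.80 ± 0.412 TPM), Smad6 (2.61 ± 0.378) and Smad7 (1.70 ± 0.0416) and the ligand Bmp8b (2.01 ± 0.0700) were the lowest. Along this order the WT ranges of Id2 and Bmp7, of Bmp4 and Bmp2, and of Bmp2 and Bambi overlapped, and the other neighbours did not. Id3 and Id1 kept the highest and second-highest mean TPM in both mutants.

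**Figure D1:**
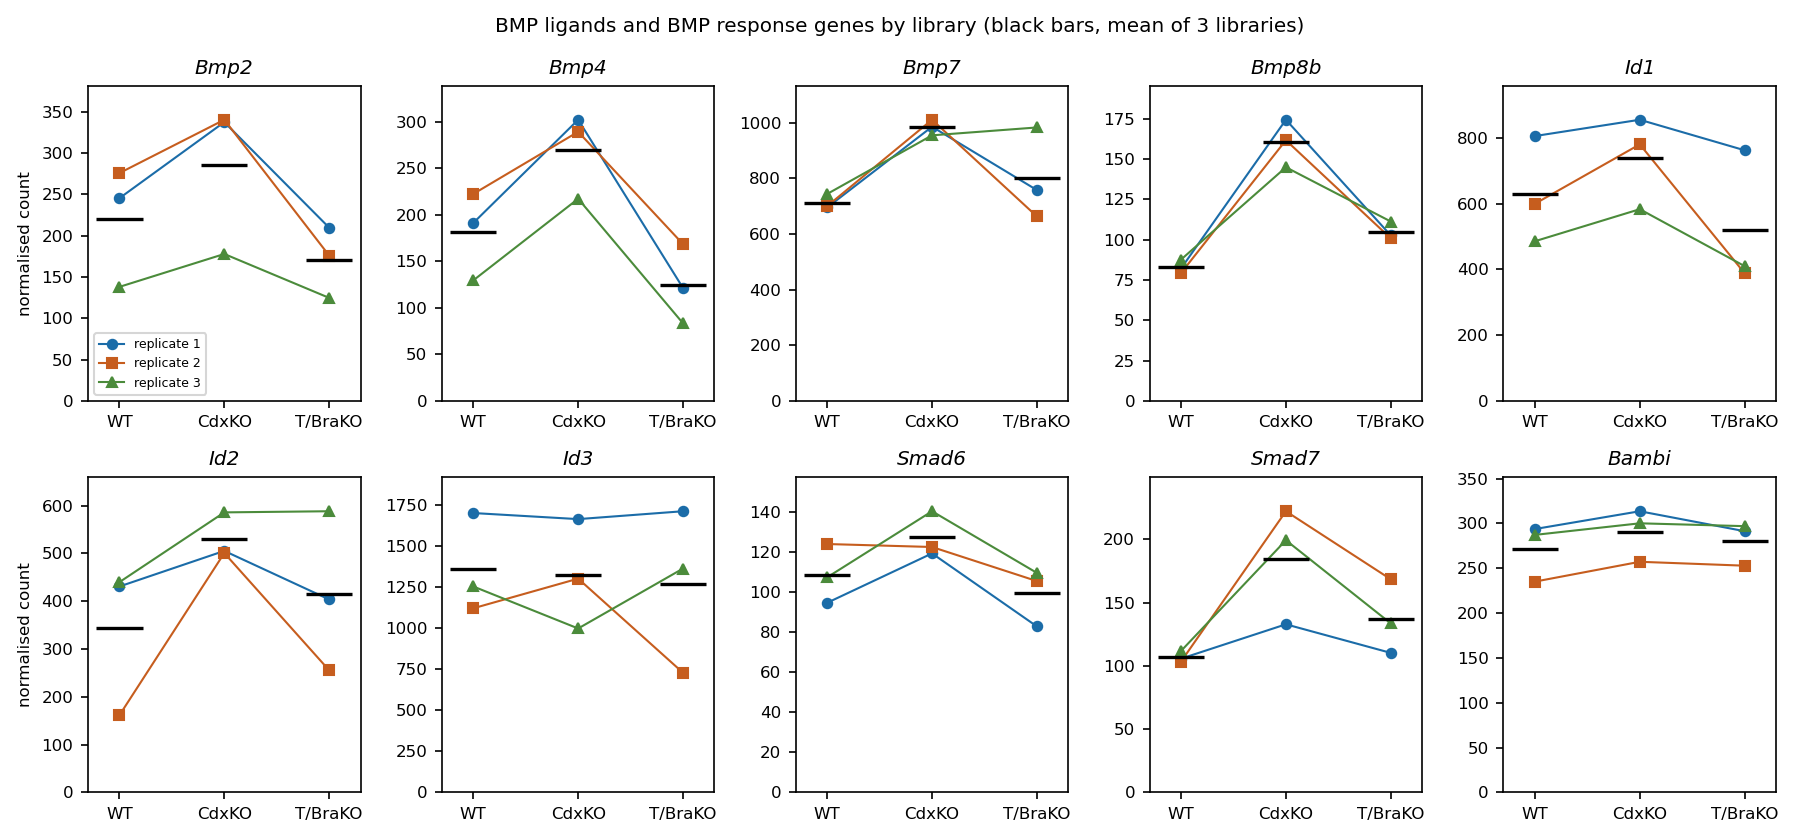
Normalised counts (vertical axes, each from 0) of the 10 genes in the 9 libraries, by genotype. Coloured points of 1 shape joined by lines carry the same replicate number and black bars are means of 3 libraries. Bmp8b and Bmp7 are higher in every CdxKO library than in every WT library, whereas Id3 and Bambi differ more by replicate number than by genotype.

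Libraries with the same replicate number resembled each other, and several of the 10 genes moved more with that number than with genotype. Replicate number took 88.0% of the sum of squares of Bambi on the log2(normalised count + 1) scale, 63.2% of Id3, 61.2% of Bmp2 and 55.8% of Id1. At the other end it took 0.419% of Bmp8b, for which genotype took 95.9%, while genotype took 67.5% of Bmp4 and 65.7% of Bmp7. Each comparison was therefore fitted by genotype alone, as in the study's methods, and again with a block term for the replicate number. A gene is called below where DESeq2's Wald test gave a Benjamini-Hochberg adjusted p of at most 0.05 over all genes tested.

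In CdxKO cells Bmp8b rose over WT cells, and with the replicate block so did 2 further ligands, Bmp4 and Bmp7, and 1 of the 6 response genes, Smad7. Of the 10 genes, 1 was called by genotype alone (Bmp8b, higher), where 0.693% of all tested genes were called and 0.335% were called higher. With the block 4 were called, all higher (Bmp4, Bmp7, Bmp8b and Smad7), where the background was 5.31% in either direction and 3.40% higher. The median log2 fold change of the 10 genes was 0.42, against -0.0023 over all tested genes, and 9 of 10 estimates were positive. By edgeR's quasi-likelihood test none of the 10 was called without the block (background 0.110%), and 4 were called with it (background 4.61%). Without the block 3 of the 10 had an unadjusted p under 0.05 by edgeR, as had 5.08% of all genes.

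In T/BraKO cells none of the 10 genes was called against WT cells by DESeq2 or edgeR fitted by genotype alone, and 0 of 10 had an unadjusted p under 0.05 by either tool. Of all genes 1.08% and 0.385% were called by DESeq2 and edgeR, and 5.13% and 6.04% had an unadjusted p under 0.05. With the block Bmp4 alone was called, lower, by both tools. The background in those fits was 9.68% in either direction and 4.85% lower by DESeq2, and 9.37% by edgeR. The median log2 fold change of the 10 genes was -0.03, against 0 over all tested genes, and 5 of 10 estimates were positive.

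Between the mutants all 10 estimates were higher in CdxKO cells, and the calls were again mainly ligands. By genotype alone 2 genes were called (Bmp4 and Bmp8b), against a background of 3.48% in either direction and 2.52% higher. With the block 5 were called (Bmp2, Bmp4, Bmp7, Bmp8b and Id1), against 14.6% in either direction and 7.75% higher. The median log2 fold change was 0.39, against -0.01 over all tested genes. edgeR called none without the block (background 1.63%) and 4 with it (background 18.5%). Without the block 3 of the 10 had an unadjusted p under 0.05 in edgeR, as had 10.9% of all genes. The 3 comparisons share libraries (WT cells enter both comparisons with WT), so their values are not independent of each other.

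**Figure D2:**
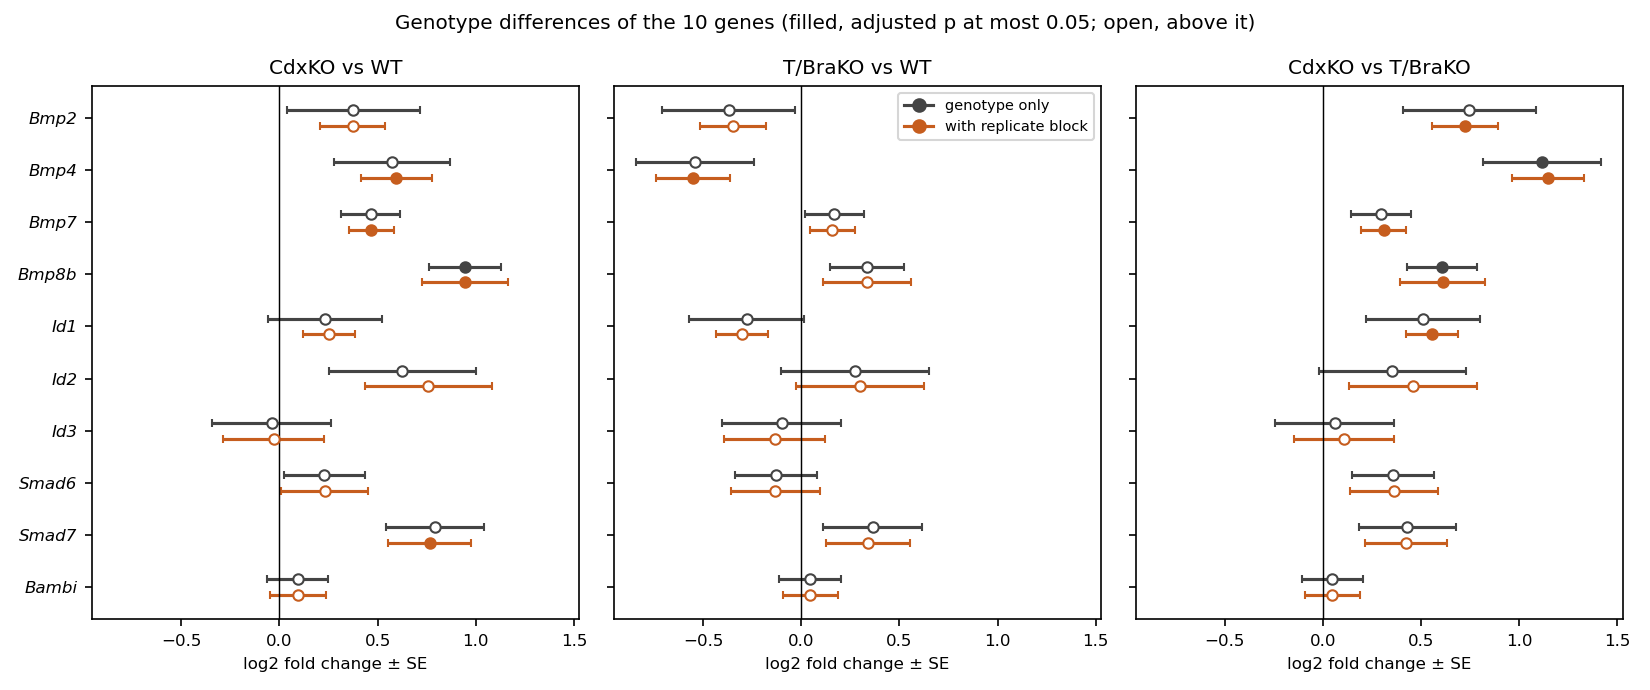
Log2 fold changes (horizontal axis, points, with bars of 1 SE) of the 10 genes in the 3 comparisons, by genotype alone (grey) and with the block (orange). Filled points have an adjusted p of at most 0.05. In CdxKO against WT cells 9 of the 10 genes, all but Id3, lie to the right of 0. The block narrows the bars of Bmp2, Bmp4 and Id1 more than it moves the points.

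Bmp4, the ligand that mesoderm formation requires, was lowest in T/BraKO cells and highest in CdxKO cells. Its normalised counts in replicates 1, 2 and 3 were 191, 222 and 129.6 in WT cells, 302, 289 and 217 in CdxKO cells and 121, 169 and 83.4 in T/BraKO cells. Every CdxKO library lay above every T/BraKO library, WT overlapped both, and within each replicate number the order was CdxKO, WT, T/BraKO. Group means were 269.6 ± 45.8 (SD, n = 3) in CdxKO, 181 ± 47.3 in WT and 124 ± 42.6 in T/BraKO cells. The difference between the mutants was called (log2 fold change 1.11, SE 0.30, adjusted p = 0.00838). It was also called with the block (log2 fold change 1.15, SE 0.18, adjusted p = 2.8e-08), and there in all 9 fits that left out 1 library.

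Within replicates 1, 2 and 3 the log2 ratio of CdxKO to T/BraKO for Bmp4 was 1.32, 0.78 and 1.38. By genotype alone the Bmp4 call between the mutants was lost in 4 of 9 fits, those without CdxKO replicate 1 or 2 or without T/BraKO replicate 1 or 3 (adjusted p = 0.0751 to 0.12, log2 fold changes 0.89 to 1.10). Against WT cells Bmp4 was not called by genotype alone in either mutant (log2 fold changes 0.57 and -0.54, adjusted p = 1 in both). With the block Bmp4 rose in CdxKO cells (log2 fold change 0.59, SE 0.18, adjusted p = 0.024) and fell in T/BraKO cells (log2 fold change -0.55, SE 0.19, adjusted p = 0.0395). The CdxKO call was lost without WT replicate 1, 2 or 3 or CdxKO replicate 1 or 3 (adjusted p = 0.181 to 0.325), and the T/BraKO call without any of these or T/BraKO replicate 1 or 3 (adjusted p = 0.0638 to 0.282).

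Bmp2, the closest relative of Bmp4, followed the same order within each replicate number, on a larger spread between numbers. Its normalised counts were 245, 276 and 138 in WT cells, 337, 340.2 and 178 in CdxKO cells and 209.6, 176 and 125 in T/BraKO cells. Replicate 3 was the lowest library of every genotype, and the 3 groups overlapped. By genotype alone the difference between the mutants was not called (log2 fold change 0.75, SE 0.34, adjusted p = 0.336). In the blocked fit Bmp2 was higher in CdxKO than in T/BraKO cells (log2 fold change 0.72, SE 0.17, adjusted p = 0.000342), in all 9 fits without 1 library. Neither mutant differed from WT cells by a call with the block (95% intervals of the log2 fold change 0.05 to 0.70 for CdxKO and -0.68 to -0.01 for T/BraKO, adjusted p = 0.219 and 0.207).

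Some markers of fibroblasts, the feeder cells on which the lines were kept, moved with Bmp4 and Bmp2. Group means of Col1a1, Col1a2 and Postn followed the order of Bmp4, and those of Col3a1, Dcn, Thy1 and S100a4 did not. Lum followed it too, at low means of 6.01, 6.07 and 4.59 normalised counts in WT, CdxKO and T/BraKO cells. The collagen gene Col1a1 had normalised counts of 1202, 1532 and 626 in WT cells, 2010.2, 2952 and 1377 in CdxKO cells and 729, 605 and 353 in T/BraKO cells. The summed level of the 8 fibroblast markers ranged from 1726 to 3316 in WT, 2598 to 5189 in CdxKO and 1425 to 2525 in T/BraKO cells. Of the 8 markers, 3 were higher in CdxKO than in T/BraKO cells by genotype alone (Col1a1, Col1a2 and Postn) and 1 was lower (Thy1). With the block, Col1a1 and Col1a2 also rose in CdxKO over WT cells (log2 fold changes 0.94 and 0.43) and Thy1 fell (-0.73). Col1a1, Col1a2 and Postn fell in T/BraKO compared with WT cells with the block (-0.96, -0.81 and -2.48). In both comparisons Bmp4 was called in the direction of Col1a1 and Col1a2, whereas the collagen gene Col3a1 was called in neither. Of the other fibroblast genes, Lum had at most 8.39 and Dcn at most 76.9 normalised counts in any library. Mean normalised counts in WT, CdxKO and T/BraKO cells were 228, 179 and 206 for Col3a1 and 29.8, 32.9 and 48.7 for Dcn. For S100a4 they were 3.14, 11.7 and 9.30, and for Thy1 477, 285 and 658. Over the 9 libraries, which share genotypes and replicate numbers, Pearson's r of log2(normalised count + 1) with Col1a1 was 0.945 for Bmp4 and 0.903 for Bmp2. The summed level of 5 paraxial mesoderm markers, genes of the tissue that T is known to drive, was 1847 to 3165 in WT, 1249 to 3217 in CdxKO and 548 to 853 in T/BraKO cells, and thus also set T/BraKO cells apart. Between CdxKO and WT cells the summed levels of all 8 marker lists overlapped as groups, but within replicate numbers several moved one way. Surface ectoderm markers (5 genes) summed to 3934, 5130.3 and 2669 in WT and 6945, 6936 and 4588 in CdxKO cells in replicates 1, 2 and 3. Most of this sum came from Krt18, with means of 3420 in WT and 5587 in CdxKO cells. Grhl2 had means of 462 and 508, and Tfap2a, Krt5 and Trp63 had means of at most 32.9 in these groups. The fibroblast and naive pluripotency lists were likewise higher in CdxKO cells in 3 of 3 numbers, and the caudal epiblast and lateral mesoderm lists lower in 3 of 3. The caudal epiblast list holds the mutated genes Cdx1, Cdx2 and Cdx4, so its sum is not independent of the genotype. Cdx2 alone had a mean of 4199 in WT and 1031 in CdxKO cells. Whether cells of another type contributed to the differences of the 10 genes was not tested, and in bulk RNA more cells of a type and more RNA per cell cannot be told apart.

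**Figure D3:**
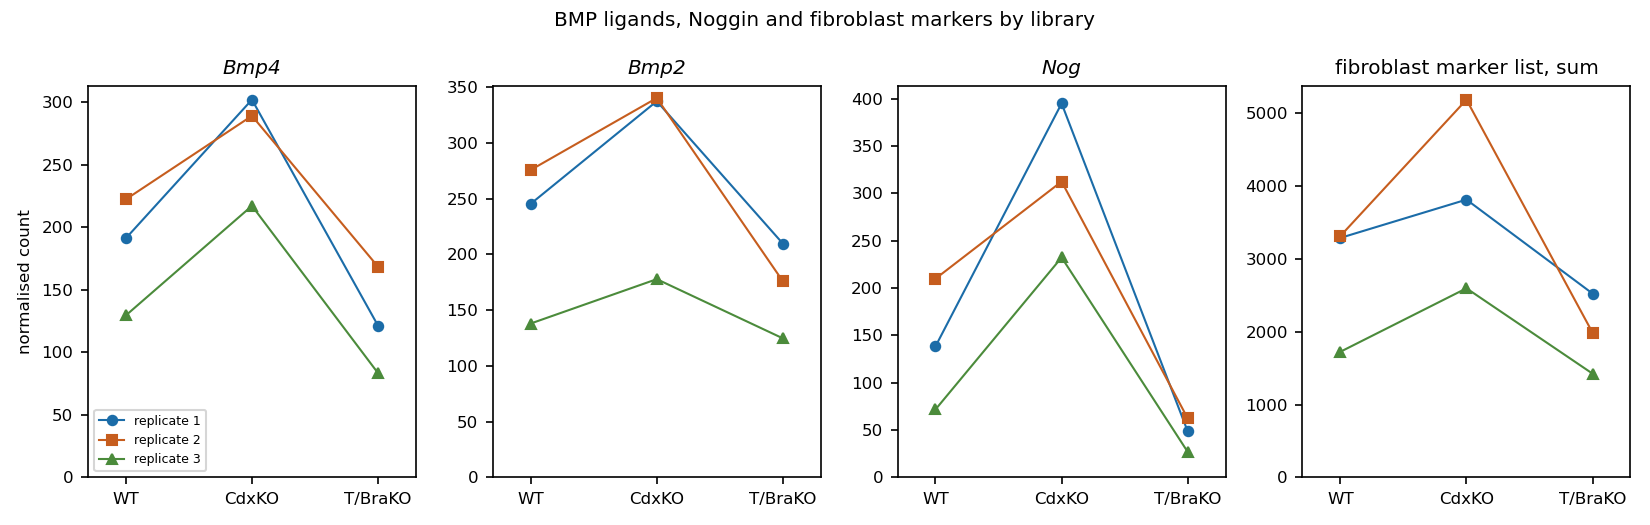
Normalised counts (vertical axes, each from 0) of Bmp4, Bmp2 and Nog and the summed normalised counts of the 8 fibroblast markers in the 9 libraries, by genotype, with lines joining libraries of 1 replicate number. All 4 are lowest in T/BraKO cells within each replicate number, and highest in CdxKO cells.

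Bmp7, the most abundant of the 4 ligands on the TPM scale and a member of the ligand subgroup that also holds Bmp5, Bmp6 and Bmp8, was higher in CdxKO cells. Its normalised counts were 695, 700.3 and 744 in WT cells, 986, 1011 and 955 in CdxKO cells and 758, 663 and 983 in T/BraKO cells. The WT and CdxKO groups did not overlap, whereas T/BraKO cells spread from below the lowest WT library to within the CdxKO range, with replicate 3 the highest. By genotype alone the CdxKO difference from WT was not called (log2 fold change 0.46, SE 0.15, adjusted p = 0.202), except in the fits without T/BraKO replicate 2 (adjusted p = 0.0366) or replicate 3 (adjusted p = 0.00276), which enter the shared estimate of spread. With the block it was called (log2 fold change 0.47, SE 0.11, adjusted p = 0.00206), and that call was lost without WT replicate 1 or 3 or CdxKO replicate 1 or 2 (adjusted p = 0.0937 to 0.11). The blocked difference between the mutants was smaller (log2 fold change 0.31, SE 0.11, adjusted p = 0.047) and was lost in 7 of 9 fits, those without any WT library, CdxKO replicate 1 or 2 or T/BraKO replicate 1 or 2 (adjusted p = 0.0855 to 0.415). By genotype alone that difference was called in 1 fit, without T/BraKO replicate 3 (adjusted p = 0.00351).

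Bmp8b, known for its part in inducing primordial germ cells from the proximal epiblast, showed the most regular difference of the 10 genes between CdxKO and WT cells. Its normalised counts were 82.1, 79.3 and 87.6 in WT cells, 174, 162 and 145 in CdxKO cells and 103, 101 and 111 in T/BraKO cells. The 3 groups were wholly apart, with WT lowest, T/BraKO between and CdxKO highest. Bmp8b rose 1.92-fold in CdxKO over WT cells (log2 fold change 0.94, SE 0.18, adjusted p = 0.000136), a call that held with the block (log2 fold change 0.95, SE 0.22, adjusted p = 0.000901) and in all 9 fits without 1 library, with and without the block. In T/BraKO cells the estimate over WT was 0.34 (95% interval -0.03 to 0.71, adjusted p = 1). Between the mutants Bmp8b was called higher in CdxKO cells (log2 fold change 0.61, SE 0.18, adjusted p = 0.0222). That call was lost in 7 of 9 fits, those without WT replicate 1 or any CdxKO or T/BraKO library (adjusted p = 0.051 to 0.231).

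The Bmp8b estimate rests in part on how reads were shared with Bmp8a, a neighbouring copy on the same chromosome (chr4:123312645-123343252, minus strand). The longest coding sequences of the 2 genes, of 1200 and 1239 bases, aligned over 1200 bases, of which 1056 were identical (88.0%). Of all 76-base windows of their transcripts, the length of the sequenced reads, 157 occur in both genes, which is 5.48% of those of Bmp8b and 6.54% of those of Bmp8a. No other pair among the 10 genes and Bmp8a shared a 76-base window. The longest identical run spans 182 coding bases (451 to 632 in both genes), and its first 120 bases are shown because a read from within it fits both genes. They lie in exons 2 and 3 of 7 (Bmp8b, chr4:123114693-123114757 and chr4:123115146-123115200). The stretch of 120 bases with the fewest matches shows what separates the copies, with the 27 differing bases in capitals. It lies, but for its first base, in exon 7 (Bmp8b, chr4:123124388-123124506, Bmp8a, chr4:123313298-123313416), and all sequences are from GENCODE M21 transcripts of GRCm38.

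Bmp8b and Bmp8a, shared: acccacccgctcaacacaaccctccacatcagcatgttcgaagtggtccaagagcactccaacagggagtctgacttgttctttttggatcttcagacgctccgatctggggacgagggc
Bmp8b, least alike: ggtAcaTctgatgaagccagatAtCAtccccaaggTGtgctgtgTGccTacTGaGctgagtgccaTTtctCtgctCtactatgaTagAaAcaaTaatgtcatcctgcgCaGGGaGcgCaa
Bmp8a, least alike: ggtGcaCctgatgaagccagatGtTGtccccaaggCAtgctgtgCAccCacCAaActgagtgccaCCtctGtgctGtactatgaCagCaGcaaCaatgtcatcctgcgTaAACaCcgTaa

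RSEM's expected counts of Bmp8b were fractional in all 9 libraries, those of the other 9 genes in none, and the sum of Bmp8a and Bmp8b was a whole number (within 0.001) in each library. Bmp8b took 81.5, 81.9 and 80.4% of that sum in WT, 83.9, 87.1 and 84.9% in CdxKO and 73.0, 74.5 and 68.1% in T/BraKO cells. The share was thus highest in CdxKO and lowest in T/BraKO cells, with no overlap between groups. The summed normalised counts were 101, 96.7 and 109 in WT, 208, 186 and 170.2 in CdxKO and 141, 135 and 163 in T/BraKO cells, and every CdxKO library stayed above every other. On the sum, CdxKO cells remained higher than WT cells (log2 fold change 0.87, adjusted p = 0.000451). The difference between the mutants was not called on the sum (log2 fold change 0.36, adjusted p = 0.4, and 0.238 with the block), nor was that between T/BraKO and WT cells (log2 fold change 0.52, adjusted p = 0.239).

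Id1, Id2 and Id3 encode helix-loop-helix proteins that bind and inactivate basic helix-loop-helix factors, and Id1 and Id3 are among the most direct readouts of SMAD1 and SMAD5. Id1 had normalised counts of 806, 599.7 and 486 in WT cells, 855, 780.4 and 583 in CdxKO cells and 762, 388 and 409.9 in T/BraKO cells. Replicate 1 was the highest library of each genotype, the groups overlapped, and within each replicate number T/BraKO was lowest and CdxKO highest. The difference between the mutants was not called by genotype alone (log2 fold change 0.51, SE 0.29, adjusted p = 0.566). In the blocked fit Id1 was higher in CdxKO cells (log2 fold change 0.55, SE 0.13, adjusted p = 0.000562), a call lost without CdxKO replicate 2 (adjusted p = 0.0559). The log2 ratios of CdxKO to T/BraKO within replicates 1, 2 and 3 were 0.17, 1.01 and 0.51, all above 0 and largest in replicate 2. Without T/BraKO replicate 1 it was called by genotype alone (log2 fold change 0.89, adjusted p = 0.0223), and with the block Id1 then also fell in T/BraKO compared with WT cells (log2 fold change -0.47, adjusted p = 0.0409).

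Id2 had normalised counts of 431, 162 and 440.0 in WT cells, 505, 501 and 586 in CdxKO cells and 404, 256 and 588 in T/BraKO cells. Replicate 2 was low in WT and T/BraKO cells, and CdxKO cells lay above all 3 WT libraries. No Id2 comparison was called with or without the block, and the 95% interval of the CdxKO difference from WT was -0.11 to 1.36 on the log2 scale by genotype alone and 0.12 to 1.40 with the block (adjusted p = 1 and 0.195). Without WT replicate 1 the blocked difference was called (log2 fold change 1.00, adjusted p = 0.00486), which leaves WT replicates 2 and 3.

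Id3, the most abundant of the 10 genes, had normalised counts of 1702, 1122 and 1255 in WT cells, 1665, 1303 and 999 in CdxKO cells and 1713, 729 and 1364 in T/BraKO cells. The groups overlapped throughout, and the lowest library was T/BraKO replicate 2. Against WT its log2 estimates were -0.04 in CdxKO and -0.10 in T/BraKO cells, with 95% intervals of -0.64 to 0.55 and -0.69 to 0.50 by genotype alone and -0.53 to 0.48 and -0.64 to 0.37 with the block, and no Id3 comparison was called in either fit.

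The inhibitory factors differed among themselves. Smad7, an inhibitory SMAD that acts on both BMP and activin-type receptors, had normalised counts of 106, 103 and 112 in WT cells, 133, 222 and 199 in CdxKO cells and 110.3, 169 and 134 in T/BraKO cells. The 3 WT libraries lay close together, every CdxKO library lay above them, and T/BraKO cells overlapped both. By genotype alone the CdxKO difference from WT was not called (log2 fold change 0.79, SE 0.25, adjusted p = 0.154), other than in the fit without CdxKO replicate 1 (log2 fold change 0.98, adjusted p = 0.0139). With the block Smad7 rose in CdxKO cells (log2 fold change 0.77, SE 0.21, adjusted p = 0.01), but not without WT replicate 2 or 3 or CdxKO replicate 2 or 3 (adjusted p = 0.104 to 0.32).

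Smad6, the inhibitory SMAD that acts mainly on BMP receptors, had normalised counts of 94.5, 124 and 107 in WT cells, 119, 122 and 140.1 in CdxKO cells and 82.7, 105 and 109 in T/BraKO cells. The 2 mutants did not overlap, by a narrow gap, and WT overlapped both. The log2 difference between the mutants was 0.36 (95% interval -0.05 to 0.76, adjusted p = 0.581), and no Smad6 comparison was called with or without the block. Bambi, a receptor-like protein without a kinase domain that dampens BMP and activin signalling, had normalised counts of 294, 235 and 287 in WT cells, 314, 257 and 300.1 in CdxKO cells and 291, 253 and 297 in T/BraKO cells. Replicate 2 was the lowest library in every genotype and the groups overlapped. Its 3 log2 differences were 0.09, 0.04 and 0.05, with 95% intervals in the blocked fit of -0.18 to 0.37, -0.23 to 0.32 and -0.23 to 0.32.

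The other genes of the BMP pathway were read from a list of 70 genes in 7 roles. Of these, 2, 3 and 9 were called by genotype alone in CdxKO against WT, T/BraKO against WT and CdxKO against T/BraKO cells, and 9, 4 and 15 with the block. By genotype alone these were 2 of 67, 3 of 68 and 9 of 66 genes tested, where 0.693%, 1.08% and 3.48% of all tested genes were called. With the block they were 9 of 56, 4 of 48 and 15 of 62, where 5.31%, 9.68% and 14.6% of all were called, so the share in T/BraKO against WT cells lay below that of all genes. The medians of the tested members were 0.09, -0.02 and 0.03 by genotype alone. The 16 genes called at least once are described by role, with values by genotype alone unless the block is named.

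Among the 12 other ligands, 1 was called by DESeq2. In the 3 comparisons 9, 10 and 9 of the 12 were tested by genotype alone, and 5, 3 and 7 with the block. edgeR with the block called Bmp8a higher in T/BraKO than in WT cells. Between the mutants it called Bmp3, Bmp5 and Gdf6, all higher in CdxKO cells. Bmp5, a relative of Bmp7, had normalised counts of 116, 103 and 102 in WT cells, 226, 169.6 and 125 in CdxKO cells and 91.6, 62.3 and 117 in T/BraKO cells, was highest in CdxKO cells and differed between the mutants (log2 fold change 0.94, SE 0.29, adjusted p = 0.0431). The call was lost without any 1 library other than CdxKO replicate 3 or T/BraKO replicate 3 (adjusted p = 0.067 to 0.411).

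Among 12 receptors and co-receptors, 3 were called by DESeq2, all of them co-receptors. With the block, edgeR also called Eng, lower in T/BraKO than in WT cells. Tgfbr3, which encodes betaglycan, had normalised counts of 797, 973 and 1059 in WT cells, 893, 904 and 1026 in CdxKO cells and 1474, 1747 and 2016 in T/BraKO cells, with every T/BraKO library above all others. It rose in T/BraKO cells over WT (log2 fold change 0.89, SE 0.16, adjusted p = 5.95e-06) and was higher there than in CdxKO cells by a similar amount. Rgma, a membrane-anchored BMP co-receptor, had normalised counts of 3293, 2317 and 2018 in WT cells, 1489.8, 1778 and 669 in CdxKO cells and 4594, 2689 and 2780.4 in T/BraKO cells and was lower in CdxKO than in T/BraKO cells (log2 fold change -1.35, SE 0.34, adjusted p = 0.00368), a call lost without T/BraKO replicate 1 (adjusted p = 0.109). In the blocked fit Rgma also fell in CdxKO compared with WT cells (log2 fold change -0.999, SE 0.322, adjusted p = 0.0386), which was lost without any WT library, CdxKO replicate 1 or 3 or T/BraKO replicate 1 or 3 (adjusted p = 0.0522 to 0.435). Its relative Rgmb went the other way between the mutants (log2 fold change 0.58, SE 0.14, adjusted p = 0.00256), a call lost without CdxKO replicate 3 (adjusted p = 0.0689) or T/BraKO replicate 3 (adjusted p = 0.0612). None of the 7 type I and type II receptors was called by DESeq2 in any comparison, with or without the block, and 0 of 7 by genotype alone and 1 of 7 with the block (Acvr2b, in both comparisons with WT) had an unadjusted p under 0.05.

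Of the 4 signal-transducing SMADs only Smad4 was called, with the block, between the mutants (log2 fold change -0.17, SE 0.05, adjusted p = 0.0197). It was lost without any CdxKO library or T/BraKO replicate 3 (adjusted p = 0.0629 to 0.151).

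The secreted antagonists held the largest differences of the pathway. Nog encodes Noggin, which binds BMP2, BMP4 and BMP7 and keeps them from their receptors. Its normalised counts were 138, 209.9 and 71.8 in WT cells, 395, 313 and 232 in CdxKO cells and 48.5, 62.3 and 26.9 in T/BraKO cells. The 3 groups did not overlap, and the order within each replicate number was that of Bmp4. Nog was higher in CdxKO than in T/BraKO cells (log2 fold change 2.77, SE 0.42, adjusted p = 6.91e-09), in every fit without 1 library.

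Compared with WT cells, Nog fell in T/BraKO cells (log2 fold change -1.61, SE 0.42, adjusted p = 0.0154), a call lost without WT replicate 1 or 2 or T/BraKO replicate 1 or 3 (adjusted p = 0.0737 to 0.294) but kept in all 9 blocked fits. In CdxKO over WT cells it was called with the block (log2 fold change 1.25, SE 0.22, adjusted p = 2.69e-06, in 9 of 9 fits without 1 library). By genotype alone Nog was not called there (adjusted p = 0.302), except without WT replicate 2 (log2 fold change 1.58, adjusted p = 0.0214). Across the 9 libraries Pearson's r between Nog and Bmp4 was 0.969, and between Nog and Col1a1 0.956, and the part of the fibroblast markers in the Nog differences was not tested.

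Vwc2, a secreted BMP antagonist also called Brorin, had normalised counts of 77.6, 73.5 and 33.6 in WT cells, 58.9, 64.3 and 32.9 in CdxKO cells and 6.62, 1.83 and 4.48 in T/BraKO cells. T/BraKO cells held 6, 2 and 5 counts before scaling, far below both other groups, which overlapped (log2 fold change -3.86, SE 0.60, adjusted p = 6.68e-08 against WT). With the block Nbl1, which encodes the antagonist DAN, rose in CdxKO over WT cells (log2 fold change 0.71, adjusted p = 0.0133) and Fstl1, which encodes a follistatin-like protein, fell (log2 fold change -0.35, adjusted p = 0.00239). Fst, which encodes the activin and BMP binding protein follistatin, was higher in CdxKO than in T/BraKO cells with the block (log2 fold change 0.40, adjusted p = 0.0318). By genotype alone Fst was called between the mutants in the fit without CdxKO replicate 2 (log2 fold change 0.55, adjusted p = 0.0134). The Nbl1 call was lost without any WT or CdxKO library (adjusted p = 0.0641 to 0.185), that of Fstl1 without WT or CdxKO replicate 1 or 3 (0.119 to 0.192), and that of Fst without any WT library, CdxKO replicate 3 or T/BraKO replicate 1 or 3 (0.0673 to 0.255). Between the mutants Fstl1 was lower in CdxKO cells with the block (log2 fold change -0.29, adjusted p = 0.00943), but not without CdxKO or T/BraKO replicate 1 or 3 (adjusted p = 0.174 to 0.286).

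Of 6 proteases 2 were called by DESeq2 in the fits to all 9 libraries, with the block only. With the block, edgeR also called Pcsk5, lower in CdxKO than in T/BraKO cells. Bmp1, a metalloprotease that cleaves the antagonist Chordin and is no BMP ligand in spite of its name, was higher in CdxKO than in WT cells (log2 fold change 0.47, adjusted p = 0.00161) and than in T/BraKO cells (0.56, adjusted p = 2.24e-05). Over WT the Bmp1 call was lost without WT replicate 2 or CdxKO replicate 1 or 2 (adjusted p = 0.0792 to 0.225). By genotype alone Bmp1 was called between the mutants without WT replicate 2 (adjusted p = 0.0336) or without CdxKO replicate 3 (adjusted p = 0.0473). Furin, a convertase that cuts BMP precursors into their active form, was higher in CdxKO cells by 0.36 over WT (adjusted p = 0.00975) and by 0.42 over T/BraKO cells (adjusted p = 0.000488) on the log2 scale. Over WT the Furin call was lost without any WT library or CdxKO replicate 1 or 3 (adjusted p = 0.0728 to 0.322), and over T/BraKO cells without CdxKO replicate 3 (adjusted p = 0.0510). Of 6 intracellular repressors and ubiquitin ligases only Skil, a SMAD co-repressor, was called, with the block, at 0.35 over WT (adjusted p = 0.000184), which was lost without CdxKO replicate 1 (adjusted p = 0.0514). Between the mutants Skil was higher in CdxKO cells with the block (log2 fold change 0.27, adjusted p = 0.00378), but not without CdxKO or T/BraKO replicate 1 or 3 (adjusted p = 0.0632 to 0.14).

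The other response genes split. Hand1, a factor of lateral and extraembryonic mesoderm, had normalised counts of 31.5, 47.4 and 28.0 in WT cells, 188, 223 and 170.2 in CdxKO cells and 49.6, 44.9 and 32.3 in T/BraKO cells. Every CdxKO library stood above every other library, and Hand1 rose in CdxKO over WT cells (log2 fold change 2.44, SE 0.28, adjusted p = 2.58e-14). Msx1, a homeobox gene that BMP signalling induces in many tissues, had normalised counts of 324, 98.7 and 146 in WT cells, 61.4, 44.6 and 45.1 in CdxKO cells and 304, 78.8 and 157 in T/BraKO cells, lowest in all 3 CdxKO libraries, and with replicate 1 high in both other genotypes. It fell in CdxKO cells (log2 fold change -1.91, SE 0.52, adjusted p = 0.038), a call lost without WT replicate 1 or 3, any CdxKO library or T/BraKO replicate 3 (adjusted p = 0.0513 to 1), and called in all 9 such fits with the block. Between the mutants Msx1 differed too, but not without CdxKO replicate 2 or 3 or T/BraKO replicate 1 (adjusted p = 0.0878 to 0.356). Tfap2c, a factor of surface ectoderm and germ cell precursors, was lower in CdxKO than in T/BraKO cells (log2 fold change -1.06, SE 0.24, adjusted p = 0.00052). In the blocked fit Tfap2c also rose in T/BraKO over WT cells (log2 fold change 0.55, SE 0.19, adjusted p = 0.0432), which was lost without any WT library, CdxKO replicate 3 or T/BraKO replicate 1 or 3 (adjusted p = 0.0944 to 0.493), and by genotype alone it was called only without T/BraKO replicate 2 (adjusted p = 0.0471). Hand1 and Msx1, both listed as BMP response genes, thus moved in opposite directions in CdxKO cells, and the other 10 of the 13 response genes were not called by DESeq2 (0 of 10 with an unadjusted p under 0.05 by genotype alone).

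**Figure D4:**
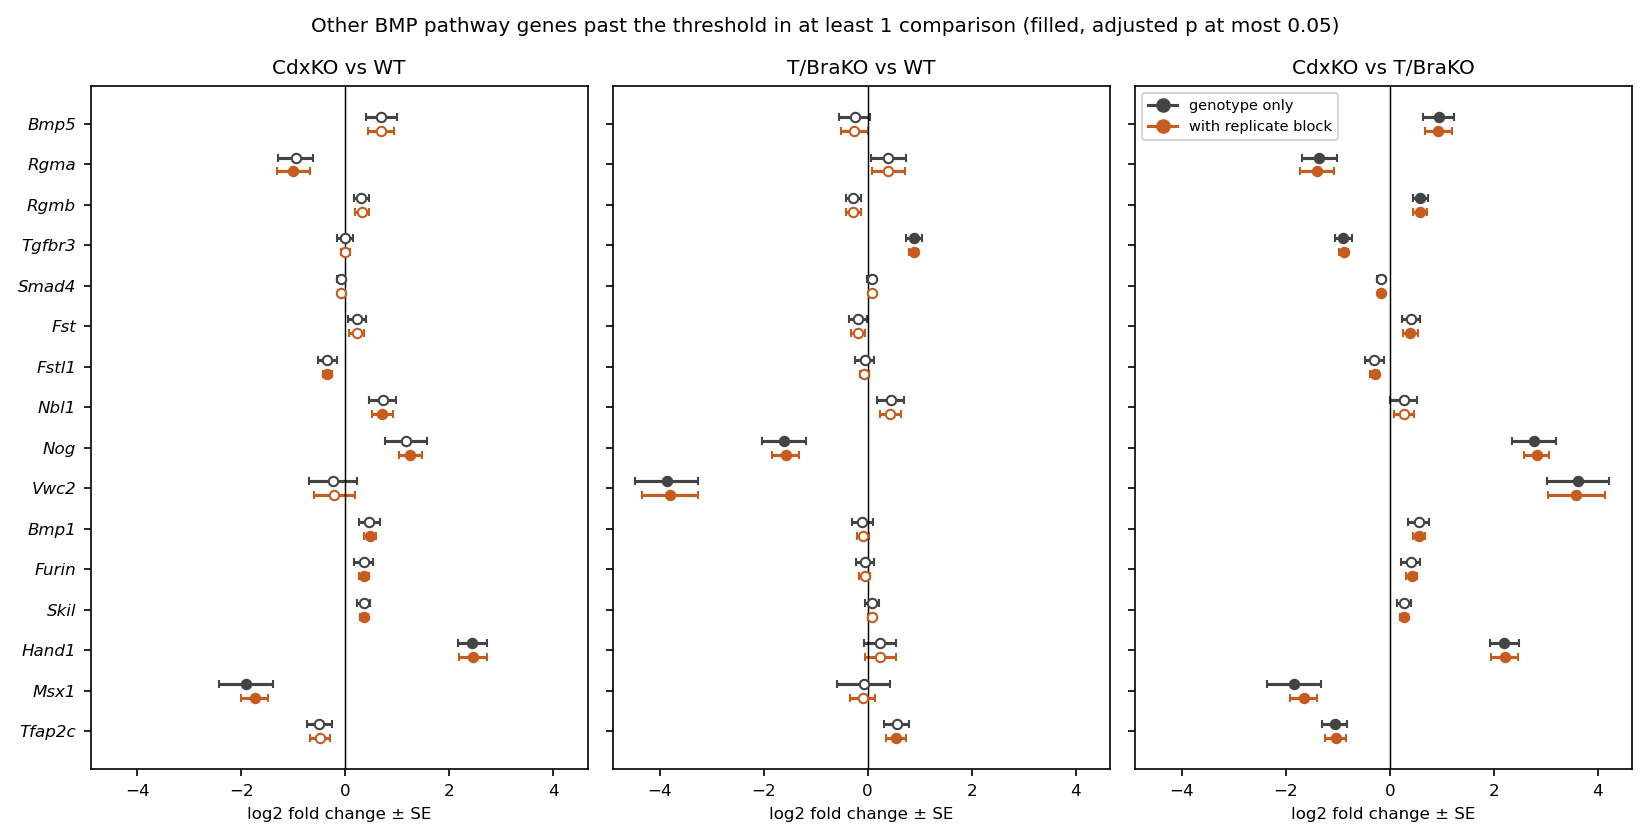
Log2 fold changes (horizontal axis, points, with bars of 1 SE) of the 16 other pathway genes called at least once, in the 3 comparisons, by genotype alone (grey) and with the replicate block (orange). Filled points have an adjusted p of at most 0.05. Nog and Hand1 are right of 0 and Rgma and Msx1 left of 0 in CdxKO cells against both other groups, and Vwc2 is far left in T/BraKO against WT cells.

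Promoters of the 2 ligands called by genotype alone are shown to let their sequences be compared, as the 250 bases before the RefSeq transcription start on the gene's strand (GRCm38.p6), with matches of 5 searched motifs in capitals. Windows of 5 of the 10 genes were searched (Bmp4, Bmp8b, Id2, Id3 and Smad6). Those of the other genes were not part of the set used here, so their motifs are not described. Both strands were searched for GGCGCC, known as a GC-rich SMAD element and present in 9.59% of 32851 promoter windows of this length, and for CAGAC, the SMAD box, present in 42.2%. The other 3 motifs were a T-box motif (AGGTGTG, 5.10% of windows), a CDX motif (TTTATNG, 9.81%) and a TCF/LEF motif (CTTTGAT, 3.21%). No motif overlapped another in these windows.

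Bmp4, chr14:46390670-46390919, minus strand: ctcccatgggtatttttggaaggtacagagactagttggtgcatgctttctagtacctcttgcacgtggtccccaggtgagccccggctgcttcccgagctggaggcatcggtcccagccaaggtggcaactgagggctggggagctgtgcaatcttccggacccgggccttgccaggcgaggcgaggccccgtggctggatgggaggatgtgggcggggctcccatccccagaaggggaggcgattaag
Bmp8b, chr4:123104911-123105160, plus strand: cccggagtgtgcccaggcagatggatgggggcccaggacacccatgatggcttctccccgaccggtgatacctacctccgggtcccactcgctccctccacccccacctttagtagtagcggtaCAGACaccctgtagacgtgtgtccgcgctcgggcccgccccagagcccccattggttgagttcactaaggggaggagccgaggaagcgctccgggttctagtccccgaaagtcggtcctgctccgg

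The Bmp4 and Smad6 windows held none of the 5 motifs. Bmp8b held 1 CAGAC from 126 to 122 bases before the start, Id3 held 2 and Id2 held 1 GGCGCC. The windows of Id3 and Id2, set by the RefSeq start, lie inside the GENCODE spans of these genes given above, past the GENCODE start. GC contents of the 5 windows searched ran from 62.8% to 66.8%, against a median of 52.4% over the 32851 windows used. No binding or accessibility data were used here, so a match describes letters and no occupancy.

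Genes whose profile over the 9 libraries was most like that of a member were read off by Pearson's r of log2(normalised count + 1) among 12316 genes with a mean of at least 50 normalised counts, as a description in which points share genotypes and replicate numbers. Bmp4 was most like Arhgdib (r = 0.990), Palld and Nuak1, and Bmp2 most like Usp22 (0.997), Cuedc1 and Spag9. Bmp7 was most like Vps53 (0.934), Pi15 and Epas1, and Bmp8b most like Nnat (0.957), Klf4 and Fam57a. Among response genes, Id1 was most like Itm2c (0.966), Id2 like Bloc1s4 (0.982) and Id3 like Tmub2 (0.968). Smad6 was most like Aasdhppt (0.960), Smad7 like Slc16a6 (0.949) and Bambi like Cyp26a1 (0.987), the retinoic acid-degrading enzyme. Within the 10 genes the pairs most alike were Bmp2 with Bmp4 (0.861) and Bmp7 with Bmp8b (0.860).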

How the data were processed

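Poly(A) RNA from 9 cultures was sequenced in single-end runs of 76 bases from strand-specific libraries. Adapter removal by the authors used cutadapt 1.16, followed by alignment with STAR 2.5.2a and quantification of mm10 RefSeq genes with RSEM 1.3.0. The deposited table holds RSEM expected counts, not normalised, and TPM values (scaled to gene length and library total), both deposited for each library. Expected counts were rounded and fitted with DESeq2 1.42.0 (Wald test, genotype as the only term, all 9 libraries, Benjamini-Hochberg over all genes). An adjusted p that DESeq2 leaves out by its filter on low counts stayed out. The tests were tested on simulated data.

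The replicate numbers paired the libraries. Deviations from the group means correlated at 0.532 to 0.814 in the 9 same-numbered pairs (12316 genes). They correlated at -0.340 on average in the 18 others. Deviations of a group sum to 0, so this negative value follows from the positive ones and adds no evidence of pairing. The fit with the number as a block is therefore given beside results it changes. Alternatives were edgeR 4.0.16 (quasi-likelihood test, with and without the block), TMM size factors, a filter of 10 counts in 3 libraries, fits to the 6 libraries compared, and each library left out. After the data were seen, block fits without each library and Bmp8a and Bmp8b summed were added.

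The genes, the 70-gene pathway list and the marker lists were chosen with earlier results of these data known. Pathway genes were named where called in any comparison, with or without the block, with a mean of at least 10 normalised counts in the higher group. Coordinates and transcripts are GENCODE M21 (GRCm38, the assembly that UCSC names mm10), and promoters are RefSeq. Expected counts of 1 library have counting error besides the spread between cultures.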

Additional observations from a re-analysis of the deposited data

Results flagged for a closer look

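The following genes differed between CdxKO and T/BraKO cells in the test of the 2 mutants against each other by genotype alone (DESeq2, adjusted p at most 0.05 over all genes), which is the difference between their changes from WT. Among the ligands the log2 difference was 1.11 for Bmp4 and 0.61 for Bmp8b, and 0.94 for Bmp5. Among antagonists it was 2.77 for Nog and 3.62 for Vwc2. Of the co-receptors, Rgmb differed by 0.58, Rgma by -1.35 and Tgfbr3 by -0.89. Of the response genes, Hand1 differed by 2.20, Msx1 by -1.84 and Tfap2c by -1.06. The Bmp8b difference was not called once the counts of Bmp8a and Bmp8b were summed. Groups of 3 libraries are too small for a test of single outlying libraries.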

How the results depend on the processing

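TMM size factors and the filter of 10 counts in 3 libraries changed no call among 58 single-gene results. These were all comparisons of the 10 genes, and those comparisons of named pathway genes that DESeq2 called with or without the block. Calls that a setting gained elsewhere in the pathway list are therefore not counted. For pathway genes the calls that the block added follow from this choice. In DESeq2 the replicate block added 21 calls and removed none. Against DESeq2 by genotype alone, edgeR without the block removed 10 and edgeR with it added 16. Counts of the 10 genes called in CdxKO against WT, T/BraKO against WT and CdxKO against T/BraKO cells went from 1, 0 and 2 to 4, 1 and 5 with the block, to 0, 0 and 0 with edgeR (3, 0 and 3 at an unadjusted p under 0.05), and to 4, 1 and 4 with edgeR and the block. Fits to the 6 libraries compared gave 2 and 1 in the first and last comparison. Counts of the 70 pathway genes went from 2, 3 and 9 to 9, 4 and 15 with the block, to 1, 2 and 4 with edgeR, and to 7, 5 and 17 with edgeR and the block. The share of all genes called moved with them, from 0.693%, 1.08% and 3.48% to 5.31%, 9.68% and 14.6% with the block, 0.110%, 0.385% and 1.63% with edgeR, and 4.61%, 9.37% and 18.5% with edgeR and the block. Leaving out each library, with and without the block, gave 1 to 4, 0 to 1 and 0 to 4 of the 10 genes and 1 to 9, 2 to 6 and 6 to 14 of the 70. These smaller fits rest on fewer samples, and the cause of the other shifts was not tested.

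Estimates changed sign without 1 library for 8 results, none of them called: Bmp7 (-0.0091 to 0.29), Id2 (-0.067 to 0.55), Id3 (-0.38 to 0.18) and Bambi (-0.051 to 0.11) in T/BraKO against WT, Id3 (-0.29 to 0.17) and Bambi (-0.0029 to 0.18) in CdxKO against WT, and Id3 (-0.22 to 0.34) and Bambi (-0.021 to 0.13) between the mutants. With 3 libraries a group, precision is limited to the intervals given.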
